A study of Mus musculus with 79 samples.

Results

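A set of 10 immediate early genes was followed in ribosome-bound mRNA of neurons that use a dopamine receptor promoter: Fos, Fosb, Junb, Egr1, Egr2, Egr4, Arc, Npas4, Nr4a1 and Nr4a3. They were chosen by symbol, and all 10 were found among the 25899 gene symbols of the deposited table. The 79 libraries came from transgenic mice in which a bacterial artificial chromosome carries the dopamine D1a or D2 receptor promoter and drives ribosomal protein L10a fused to eGFP (bacTRAP), so that tagged ribosomes and their mRNA can be pulled down with an antibody to GFP. The groups were D1 dorsal striatum (15 libraries), D2 dorsal striatum (16), D1 ventral striatum (15, punched from the nucleus accumbens), D2 ventral striatum (14) and D1 prefrontal cortex (19), and no D2 prefrontal cortex library was analysed here. In all 5 groups the mice were heterozygous for the transgene on a C57BL/6J background, were kept on a regular light and dark cycle, and are described with no treatment; no age is given. Each library pooled tissue of 3 mice with both sexes present. It is not stated in the labels whether 1 set of mice gave several regions. Consecutive titles often run through the regions of a receptor line, and 68 libraries fall into such runs of 2 or 3. They were treated as independent except in 1 alternative, and the p-values measure the spread between these pools only.

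Immediate early genes are transcribed within minutes of calcium or cAMP signals and need no new protein synthesis, because the factors that bind their promoters, CREB and serum response factor, are already present and are switched on by phosphorylation. Fos, Fosb and Junb encode subunits of the AP-1 dimer, the Egr genes encode zinc finger factors, Npas4 a neuronal bHLH-PAS factor, and Nr4a1 and Nr4a3 orphan nuclear receptors, while Arc encodes a synaptic protein that acts on AMPA receptor traffic. In striatal projection neurons the set is known for its induction by dopamine and glutamate through D1 receptors, and in mice that received no drug its mRNAs are present at a basal level.

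The cAMP response element, to which CREB binds, and the CArG box, to which serum response factor binds, are the sites through which these promoters are known to respond, so promoters are shown with both motifs marked. Those printed, of Fos, Egr2, Egr4 and Nr4a1, are the windows with 2 or more cores of the first site and no base in an annotated exon. The 250 bases before the RefSeq start site (GRCm38.p6) are written 5′ to 3′ on the gene's strand, with capitals for the core TGACG or its reverse complement CGTCA and for a CArG box.
Fos, chr12:85473640-85473889, + strand: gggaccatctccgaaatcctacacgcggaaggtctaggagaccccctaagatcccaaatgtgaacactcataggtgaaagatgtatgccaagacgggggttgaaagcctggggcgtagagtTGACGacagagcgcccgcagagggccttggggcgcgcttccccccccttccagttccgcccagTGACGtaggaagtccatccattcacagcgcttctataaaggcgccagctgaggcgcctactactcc
Egr2, chr10:67537619-67537868, + strand: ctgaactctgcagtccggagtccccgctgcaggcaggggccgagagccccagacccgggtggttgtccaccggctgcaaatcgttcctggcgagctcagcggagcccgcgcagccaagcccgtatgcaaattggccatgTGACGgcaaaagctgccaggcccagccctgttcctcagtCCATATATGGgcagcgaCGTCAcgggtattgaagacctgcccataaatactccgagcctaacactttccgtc
Egr4, chr6:85513590-85513839, - strand: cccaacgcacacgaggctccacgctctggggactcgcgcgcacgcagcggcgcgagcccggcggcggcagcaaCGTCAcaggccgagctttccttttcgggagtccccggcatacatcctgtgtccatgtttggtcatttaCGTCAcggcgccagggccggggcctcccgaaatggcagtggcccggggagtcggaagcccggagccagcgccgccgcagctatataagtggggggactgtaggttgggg
Nr4a1, chr15:101266596-101266845, + strand: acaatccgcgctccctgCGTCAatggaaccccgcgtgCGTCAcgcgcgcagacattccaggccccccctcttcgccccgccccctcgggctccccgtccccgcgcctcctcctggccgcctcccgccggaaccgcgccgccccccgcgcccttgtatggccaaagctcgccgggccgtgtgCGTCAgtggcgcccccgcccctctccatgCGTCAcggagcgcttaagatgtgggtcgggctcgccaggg
Cores of the cAMP response element began 129 and 66 bases before the start of Fos, 177 and 109 before Egr4, and 233, 213, 69 and 40 before Nr4a1. The printed Egr2 window, 1 of 5 for that gene, held cores at 111 and 55 bases and a CArG box at 72 bases before the start. Of the other Egr2 windows, 1 held a CArG box without a core and 1 held neither. The Junb window held 1 core. Both strands were searched and no match of one motif overlapped one of the other in these 4 windows. A cAMP response element core was in 17.8% of the 32851 RefSeq windows of this length, 2 or more cores were in 3.9%, and a CArG box in 1.47%. Of the 10 genes, 8 had at least 1 window. All 8 held a core in at least 1 window, 6 held 2 or more and 1 held a CArG box. These count genes over any of their windows, whereas the shares above count windows. They include windows of Nr4a3 and Npas4 with 152 and 250 bases in annotated exons. These matches describe letters in a window, not bound sites.

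The libraries held 7.35 to 30.83 M (mega) reads in genes (median 17.5), which was 30.96% to 40.15% of the total to which the authors scaled. CPM here means reads scaled to that total. Counting whole reads, the least read gene was Fos, with 6 to 427 reads a library (median 115), and the most read was Egr1, with 6904 to 51143. The markers followed the labelled cells in striatum: summed D1 projection neuron markers (Drd1a, Pdyn and Tac1) were 349.4 to 597.5 CPM in D1 and 18.59 to 80.35 in D2 dorsal striatum, and summed D2 markers (Drd2, Adora2a, Penk and Gpr6) were 2563 to 4510 in D2 and 36.66 to 95.44 in D1. The D1 libraries of prefrontal cortex carried cortical glutamatergic markers (447.7 to 771.7 CPM) and GABA interneuron markers (80.09 to 239.2), and only 14.24 to 72.86 CPM of D1 projection neuron markers. Other cell types were read as well. Summed cortical glutamatergic markers were 23.94 to 107.5 CPM in D1 and 0.928 to 27.9 in D2 dorsal striatum, and 13.74 to 92.08 and 2.79 to 66.38 in ventral striatum, with 4 of 4 markers called higher in D1 in both. Dorsal minus ventral striatum in D1 came with 3 of 3 tested GABA interneuron and 2 of 2 tested oligodendrocyte markers higher, and with 4 of 4 D2 projection neuron markers lower. In the D2 line 4 of 4 D2 projection neuron markers were higher in dorsal striatum, and 2 of 3 GABA and 2 of 3 cholinergic interneuron markers lower. The choroid plexus marker Ttr reached 39.6 CPM in D1 and 36.8 in D2 dorsal striatum, against 1.09 and 3.47 in ventral striatum. Of choroid plexus markers 1 of 1 tested was called by region in D1 (lower) and 2 of 2 in D2 (1 higher, 1 lower), and 1 of 4 cortical glutamatergic markers was higher in D1 dorsal striatum. By receptor, 3 of 3 GABA interneuron markers were higher in D1 in dorsal and 0 of 3 called in ventral striatum. Cholinergic markers were lower in D1, 1 of 1 tested in dorsal and 3 of 3 in ventral striatum. Cortex had 4 of 4 astrocyte markers higher than either D1 striatal group. No endothelial marker reached a median of 1 CPM in any group. The part of these cells in the differences of the 10 genes was not tested.

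Library titles start with 1 of 4 letter codes whose meaning is not stated: EM (53 libraries), OdP (14), BdP (9) and JAG (3). The codes were uneven, since 8 of 16 D2 dorsal and 5 of 14 D2 ventral libraries were OdP, against 0 of 15 and 1 of 15 in the D1 groups, and receptor differences are therefore also given among EM libraries. As these are bulk preparations, more tagged cells with an mRNA and more mRNA per cell cannot be told apart.

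Between striatal regions, the 3 Egr genes and Arc were higher in dorsal striatum in both receptor lines, by 0.57 to 0.97 on the log2(CPM + 0.5) scale. Prefrontal cortex had more Fos and Nr4a3 and less Fosb, Egr2 and Egr4 than either striatal region in the D1 line. Between receptors, Egr1 was lower in D1 than in D2 libraries in both regions, whereas Fosb and Nr4a3 were higher. The calls of Fosb and Nr4a3 were not made among EM libraries alone. With the title code as a covariate their ventral calls were kept and their dorsal calls lost. Npas4 passed the test as reported in none of the 6 two-group comparisons. Differences were tested with limma over all genes, and a gene counts as called at a Benjamini-Hochberg adjusted p under 0.05. The scale understates changes of genes with low CPM.

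Each count of members is given with the share of all tested genes that were called. For D1 against D2 in dorsal striatum 4 of 10 were called (3 higher, 1 lower), where 25.9% of all tested genes were (12.8% higher and 13% lower). In ventral striatum 4 of 10 were called (3 higher, 1 lower), where 47.7% of genes were (24.1% and 23.6%). Among EM libraries the tally in ventral striatum was 1 higher and 3 lower, where 40.1% of genes were called. In dorsal striatum it was 0 higher and 1 lower, where 12.3% were. For dorsal against ventral striatum 6 of 10 were called in D1 (5 higher, 1 lower; 34.6% of genes, 10.1% higher and 24.5% lower). In D2 there were 5 of 10 (4 higher, 1 lower; 28.5%, 7.93% and 20.6%). The median difference of the 10 genes there was 0.46 in D1 and 0.28 in D2, while the median of all genes was -0.12 in both. With median-ratio scaling the median of all genes moved to -0.015 (D1) and 0.005 (D2). The calls of Egr1, Egr2, Egr4 and Arc were made under every scaling tried. For prefrontal cortex 7 of 10 were called against dorsal striatum (2 higher, 5 lower; 54.8% of genes, 32.3% higher and 22.5% lower). There were 7 of 10 against ventral striatum (3 higher, 4 lower; 62.8%, 27.7% and 35.1%). These 6 comparisons share libraries. The receptor difference was not detectably different between regions: 0 of 10 members passed the interaction in limma (0 at an unadjusted p under 0.05, 0 with edgeR), where 2.64% of genes did, and the largest estimate was that of Nr4a1, 0.42 (adjusted p = 0.556). For 2 against 1 males in the pool 0 of 10 passed in limma (1 at an unadjusted p under 0.05, Egr1 at 0.15, adjusted p = 0.331; edgeR was not run for this model), where 0.0651% of genes did.

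**Figure D1:**
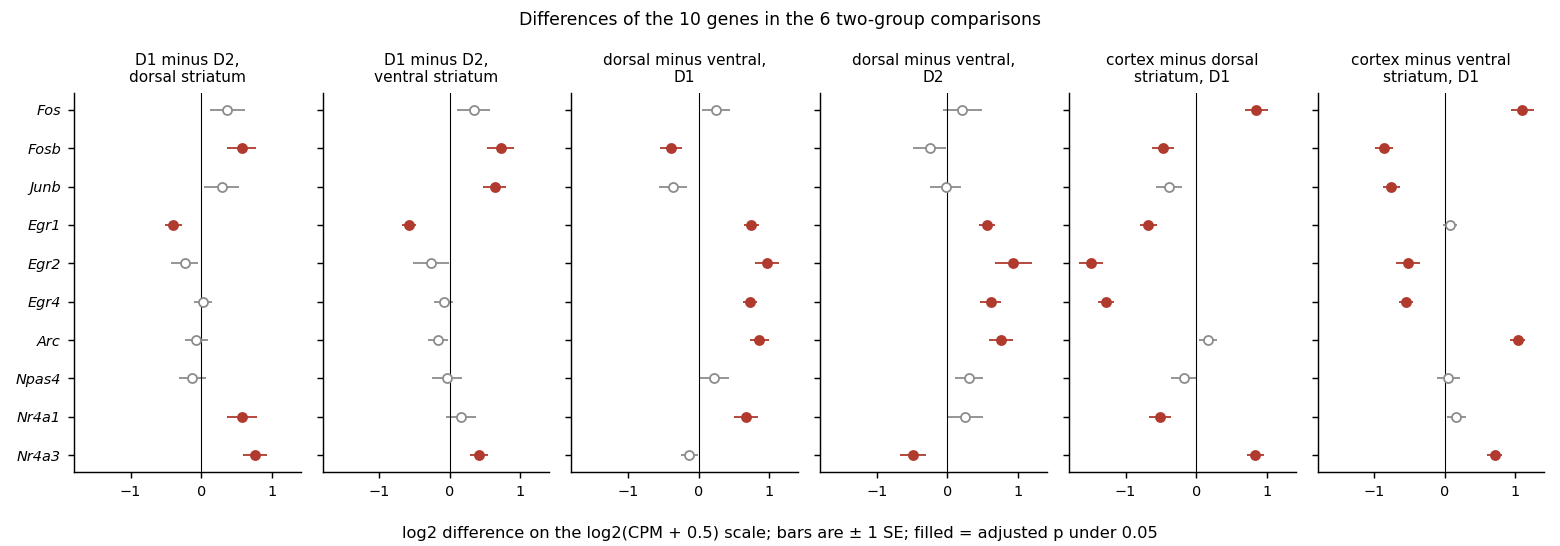
Log2 differences of the 10 genes (x axis, log2(CPM + 0.5) scale, bars 1 SE, filled points called) in the 6 two-group comparisons. Egr1, Egr2, Egr4 and Arc lie to the right in both dorsal minus ventral panels (0.57 to 0.97), and Egr1 to the left in both D1 minus D2 panels (-0.40 and -0.58).

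Fos (chr12:85473890-85477274), the founding AP-1 subunit and the usual marker of recently active neurons, was highest in prefrontal cortex. Its CPM was 2.81 to 9.05 there (median 4.88), 1.01 to 4.55 in D1 dorsal (2.34) and 0.574 to 3.79 in D1 ventral striatum (2.17). In the D2 line it was 0.309 to 5.64 in D2 dorsal (1.89) and 0.0982 to 3.60 in D2 ventral striatum (1.51). Of the 19 cortical libraries, 12 were above every D1 library of dorsal and 12 above every D1 library of ventral striatum. The difference was 0.85 (SE 0.166, limma adjusted p = 2.91e-05) against dorsal and 1.10 (SE 0.167, adjusted p = 3.19e-07) against ventral striatum. The 4 striatal groups overlapped, and no difference passed the test by region (0.24 in D1 and 0.21 in D2) or by receptor (0.37, adjusted p = 0.265, in dorsal and 0.34, adjusted p = 0.238, in ventral striatum). Among EM libraries the receptor differences were 0.02 (adjusted p = 0.964) and -0.11 (adjusted p = 0.697). With array weights over all codes, which give outlying libraries less weight, the dorsal one was called (0.62, adjusted p = 0.00982). The order of the mean levels was cortex, D1 dorsal, D1 ventral, D2 dorsal and D2 ventral, and only the first step (0.853) exceeded the pooled within-group SD (0.653).

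Fosb (chr7:19302696-19310118) encodes FosB and, by alternative splicing, the stable ΔFosB that builds up in striatum under repeated stimulation; the gene-level values do not separate the isoforms. It was highest in D1 ventral striatum, at 5.91 to 14.7 CPM (median 11.4), and was next highest in D1 dorsal at 2.71 to 12.2 (8.64). D2 ventral striatum was at 3.08 to 22.9 (6.26), cortex at 2.98 to 9.67 (5.38) and D2 dorsal striatum at 2.16 to 26.2 (4.80). A single EM library held the highest value in each D2 group, 26.2 CPM in D2 dorsal replicate 5 against 6.68 in the next and 22.9 in D2 ventral replicate 6 against 9.73 in the next (these 2 libraries have consecutive titles), so that no D1 library stood above all D2 libraries in either region. The D1 minus D2 difference of Fosb was 0.57 (SE 0.205, limma adjusted p = 0.0366) in dorsal and 0.72 (SE 0.187, adjusted p = 0.00222) in ventral striatum. Among EM libraries alone these were 0.18 (adjusted p = 0.754) and 0.30 (adjusted p = 0.172), and neither passed. With the share of reads in genes in the fit they were 0.47 (adjusted p = 0.117) and 0.68 (adjusted p = 0.0863), and again neither passed. With the title code as a covariate the dorsal call was lost and the ventral one kept. The dorsal call was also lost with edgeR, quantile normalization and no filter on low values (0.47 to 0.57, adjusted p 0.0561 to 0.143). Dropping the filter leaves an estimate as it is but moves its unadjusted and adjusted p-values. Leaving out 1 library at a time, the dorsal call was lost in 14 of 31 cases, with differences of 0.50 to 0.72 and adjusted p up to 0.0668. Fosb was lower in cortex: cortex minus D1 dorsal was -0.47 (SE 0.157, adjusted p = 0.0101) and cortex minus D1 ventral striatum -0.87 (SE 0.124, adjusted p = 8.6e-08), where 12 of 15 ventral libraries lay above every cortical one. Dorsal against ventral striatum in D1 gave -0.40 (SE 0.153, adjusted p = 0.0421), a call that leaving out 1 library undid in 17 of 30 cases (adjusted p up to 0.0693) and that edgeR did not make (-0.26, adjusted p = 0.217). Nor was it made with 4 other settings (median-ratio scaling, quantile normalization, no filter, and all groups in 1 fit; -0.28 to -0.40, adjusted p 0.0686 to 0.163).

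Junb (chr8:84976909-84978748), the third AP-1 subunit here, was at 0.556 to 7.90 CPM in D1 dorsal (median 5.78), 4.04 to 9.71 in D1 ventral striatum (5.90). It was at 1.5 to 9.5 in D2 dorsal (3.72), 1.67 to 6.96 in D2 ventral (3.39) and 2.11 to 4.74 in cortex (3.32). The lowest D1 dorsal value, in replicate 13, was far below the next, 2.90. In ventral striatum the D1 minus D2 difference of Junb was 0.64 (SE 0.159, limma adjusted p = 0.0016), and 4 of 15 D1 libraries exceeded all 14 of D2. Among EM libraries it was 0.50 (adjusted p = 0.0252). The share of reads in genes also differed between those groups (median 34.74% in D1 and 38.23% in D2), and with that share in the fit the difference was 0.24 (adjusted p = 0.499). In dorsal striatum it was 0.29 (adjusted p = 0.4), and 0.04 among EM libraries (adjusted p = 0.959). Cortex minus D1 ventral striatum was -0.76 (SE 0.117, adjusted p = 3.66e-07), and 12 of 15 ventral libraries lay above every cortical one. Against D1 dorsal striatum the value was -0.39 (adjusted p = 0.0693), and it was called in 8 alternatives (-0.37 to -0.63) and when D1 dorsal replicate 3 or 13 was left out, the lowest estimate on leaving out 1 library being -0.55 (adjusted p = 0.00048).

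**Figure D2:**
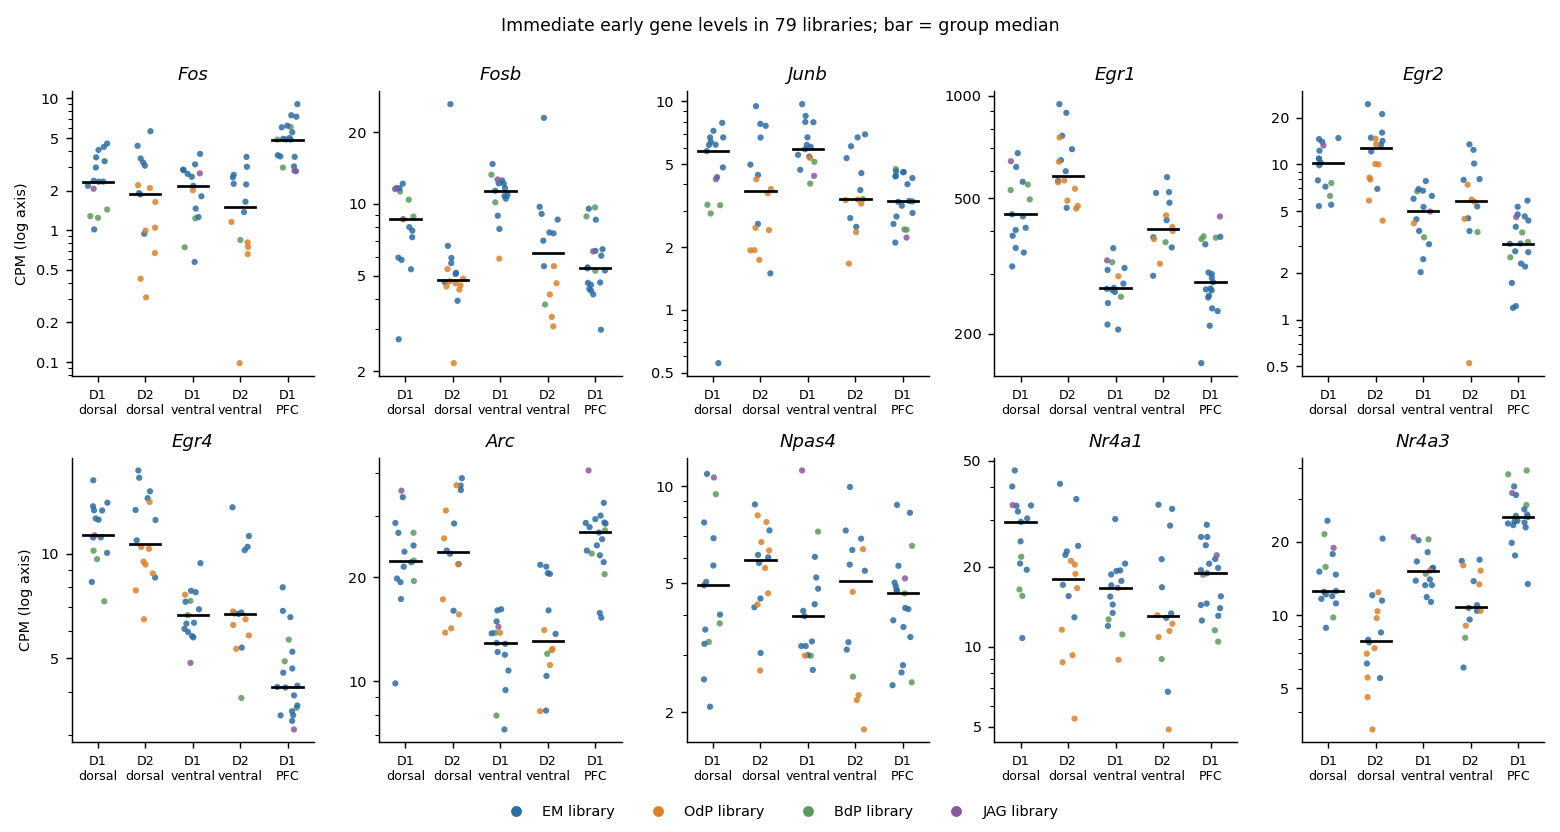
CPM of each gene (log axis) in every library of the 5 groups, coloured by title code, with bars at group medians. Fos and Nr4a3 are highest in prefrontal cortex (medians 4.88 and 25.3), Egr1 in D2 dorsal striatum (582), and the Npas4 medians span only 3.96 to 5.90.

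Egr1 (chr18:34861207-34864956), a zinc finger factor with a high basal level in forebrain neurons, was called in 5 of the 6 comparisons. It was at 466.5 to 944.2 CPM in D2 dorsal (median 581.8), 315.5 to 678 in D1 dorsal (448.5). Lower values were found at 296.1 to 576.5 in D2 ventral (406.4), 164.2 to 442 in cortex (283.7) and 206 to 356.9 in D1 ventral striatum (272.8). D2 exceeded D1 in both regions: the D1 minus D2 difference was -0.40 in dorsal (SE 0.118, limma adjusted p = 0.0122) and -0.58 in ventral striatum (SE 0.095, adjusted p = 1.1e-05), with 5 of 16 and 12 of 14 D2 libraries above every D1 library. Among EM libraries the values were -0.63 (adjusted p = 0.00745) and -0.70 (adjusted p = 0.000112). With quantile normalization the dorsal difference was -0.24 (adjusted p = 0.127) and was not called. Egr1 was the only member of the 10 with a called receptor difference among EM libraries in dorsal striatum. Dorsal exceeded ventral striatum by 0.75 in D1 (SE 0.103, adjusted p = 4.76e-07; 13 of 15 above) and 0.57 in D2 (SE 0.112, adjusted p = 0.000166; 8 of 16 above). The cortex was lower than D1 dorsal striatum (-0.68, SE 0.117, adjusted p = 3.97e-06) and did not differ detectably from D1 ventral striatum (0.07, adjusted p = 0.565).

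Egr2 (chr10:67534469-67542188), the zinc finger factor also known as Krox20, whose promoter carries the CArG box and 2 cores printed above from 1 of its windows, was also higher in dorsal than in ventral striatum. Its CPM was 4.34 to 24.5 in D2 dorsal (median 12.7), 5.39 to 14.8 in D1 dorsal striatum (10.3). It was 0.524 to 13.5 in D2 ventral (5.85), 2.02 to 7.82 in D1 ventral (4.97) and 1.19 to 5.84 in cortex (3.09). Dorsal exceeded ventral striatum by 0.97 in D1 (SE 0.172, limma adjusted p = 3.22e-05; 10 of 15 above every ventral library) and 0.94 in D2 (SE 0.263, adjusted p = 0.00644; 7 of 16 above). Against the cortex the D1 dorsal libraries were higher in 13 of 15 cases than any cortical one, a difference of -1.49 for cortex minus dorsal (SE 0.171, adjusted p = 6.72e-10), the largest of any member in the 6 comparisons. Cortex minus ventral was -0.52 (SE 0.174, adjusted p = 0.00886). The receptor differences were -0.23 (adjusted p = 0.375) in dorsal and -0.26 (adjusted p = 0.399) in ventral striatum. Among EM libraries the dorsal value was -0.56 (adjusted p = 0.0995). The ventral one was called among EM libraries (-0.65, adjusted p = 0.039) and when D2 ventral replicate 14, the library at 0.524 CPM, was left out (-0.46, adjusted p = 0.0489).

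Egr4 (chr6:85511121-85513589), another zinc finger factor of the family, stepped down from dorsal striatum to ventral striatum to cortex. Its CPM was 7.29 to 16.3 in D1 dorsal (median 11.3), 6.47 to 17.4 in D2 dorsal striatum (10.7). It was 3.84 to 13.6 in D2 ventral (6.72), 4.84 to 9.39 in D1 ventral (6.65) and 3.11 to 8.0 in cortex (4.13). Receptors did not differ detectably in dorsal (0.03, adjusted p = 0.879) or ventral striatum (-0.09, adjusted p = 0.609), nor among EM libraries (-0.12, adjusted p = 0.641, and -0.31, adjusted p = 0.0984). Dorsal exceeded ventral striatum by 0.73 in D1 (SE 0.098, limma adjusted p = 3.04e-07; 13 of 15 above) and 0.61 in D2 (SE 0.154, adjusted p = 0.00259; 5 of 16 above). Cortex minus dorsal was -1.28 (SE 0.115, adjusted p = 9.29e-13), with 14 of 15 dorsal libraries above every cortical one, and cortex minus ventral -0.55 (SE 0.105, adjusted p = 1.6e-05).

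Nr4a1 (chr15:101253902-101274795), an orphan nuclear receptor also called Nur77, had 4 cores in its promoter window. It was at 10.8 to 46.1 CPM in D1 dorsal (median 29.5), 10.5 to 28.8 in cortex (18.9). It was at 5.37 to 41.0 in D2 dorsal (18), 8.95 to 30.2 in D1 ventral (16.7) and 4.89 to 34.2 in D2 ventral striatum (13). All neighbours in the order of mean levels lay within the within-group SD. D1 exceeded D2 in dorsal striatum by 0.58 (SE 0.216, limma adjusted p = 0.0434; 1 of 15 above every D2 library), but not detectably among EM libraries (0.29, adjusted p = 0.478) or with edgeR (0.52, adjusted p = 0.064), no filter (0.58, adjusted p = 0.0752) or the read share in the fit (0.36, adjusted p = 0.211), and leaving out 1 library undid the call in 16 of 31 cases (adjusted p up to 0.0796). With the title code as a covariate the dorsal call was lost too. In ventral striatum the D1 minus D2 difference of Nr4a1 was 0.16 (adjusted p = 0.552), and -0.08 among EM libraries (adjusted p = 0.802). Dorsal exceeded ventral striatum by 0.67 in D1 (SE 0.168, adjusted p = 0.00195; 7 of 15 above), while in D2 the value was 0.25 (adjusted p = 0.497); the difference between those 2 values was the interaction given above, which did not pass. Cortex minus D1 dorsal was -0.51 (SE 0.157, adjusted p = 0.00558).

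Nr4a3 (chr4:48045078-48086447), the related receptor NOR-1, ran in another order from Nr4a1. It was highest in cortex, at 13.4 to 39.2 CPM (median 25.3). It was at 11.3 to 20.9 in D1 ventral (15.2), 8.87 to 24.4 in D1 dorsal (12.6), 6.09 to 16.9 in D2 ventral (10.8) and 3.39 to 20.6 in D2 dorsal striatum (7.82). The 20.6 CPM of D2 dorsal replicate 6 was well above the next, 12.4. Cortex exceeded D1 dorsal by 0.84 (SE 0.126, limma adjusted p = 2.73e-07; 10 of 19 above) and D1 ventral striatum by 0.71 (SE 0.107, adjusted p = 2.74e-07; 16 of 19 above). D1 exceeded D2 by 0.77 in dorsal (SE 0.174, adjusted p = 0.00114) and 0.41 in ventral striatum (SE 0.127, adjusted p = 0.0088). Among EM libraries those were 0.52 (adjusted p = 0.103) and 0.35 (adjusted p = 0.0642). The ventral call was also lost with the share of reads in genes in the fit (0.44, adjusted p = 0.104) and with array weights (0.26, adjusted p = 0.072). With the title code as a covariate the ventral call was kept and the dorsal one lost. The regional difference was -0.13 (adjusted p = 0.423) in D1 and -0.49 (SE 0.181, adjusted p = 0.039) in D2, the latter not called among EM libraries (-0.29, adjusted p = 0.436) or with edgeR (-0.31, adjusted p = 0.253), and undone by leaving out 1 library in 13 of 30 cases (adjusted p up to 0.068). Every other scaling tried undid it too, as did no filter and the read share (-0.36 to -0.49, adjusted p 0.0634 to 0.145).

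Npas4 (chr19:4984353-5003439) responds to calcium influx and is held to be the most activity-selective of the set. Its CPM was 2.69 to 8.78 in D2 dorsal (median 5.90), 1.77 to 9.94 in D2 ventral striatum (5.09). It was 2.08 to 10.9 in D1 dorsal (4.93), 2.42 to 8.75 in cortex (4.66) and 2.70 to 11.2 in D1 ventral striatum (3.96). The groups overlapped throughout, and the 6 differences ran from -0.17 to 0.31 with limma adjusted p from 0.257 to 0.897. Among EM libraries D1 was lower than D2 in ventral striatum (-0.49, adjusted p = 0.0322), and the dorsal value was -0.21 (adjusted p = 0.637). With array weights dorsal exceeded ventral striatum in D1 (0.40, adjusted p = 0.0367).

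Arc (chr15:74669081-74672570), the synaptic effector of the set, was high in cortex and dorsal striatum and low in ventral striatum. It was at 15.3 to 40.7 CPM in cortex (median 26.9), 13.8 to 38.7 in D2 dorsal (23.6) and 9.85 to 35.6 in D1 dorsal striatum (22.3). It was at 8.18 to 21.7 in D2 ventral (13.1) and 7.24 to 16.1 in D1 ventral striatum (12.9). Dorsal exceeded ventral striatum by 0.86 in D1 (SE 0.134, limma adjusted p = 4.32e-06; 14 of 15 above every ventral library) and 0.76 in D2 (SE 0.168, adjusted p = 0.000635; 11 of 16 above), and cortex exceeded ventral striatum by 1.03 (SE 0.11, adjusted p = 7.92e-11; 17 of 19 above). Cortex and dorsal striatum did not differ detectably (0.17, adjusted p = 0.258), nor did the receptors in dorsal (-0.07, adjusted p = 0.774) or ventral striatum (-0.16, adjusted p = 0.353). Among EM libraries the receptor differences of Arc were -0.32 (adjusted p = 0.321) and -0.35 (adjusted p = 0.116). In the order of mean levels the only step larger than the pooled within-group SD (0.415) was that from D1 dorsal to D2 ventral striatum (0.694).

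The title code moved with several members inside a group. In D2 dorsal striatum Fos ran from 0.941 to 5.64 CPM in 8 EM libraries (median 3.18) and from 0.309 to 2.20 in 8 OdP libraries (1.02), and in D2 ventral striatum from 1.37 to 3.60 in 8 EM (2.38) and from 0.0982 to 1.16 in 5 OdP libraries (0.746), where every EM library was above every OdP library. The EM minus OdP difference of Fos was 1.10 (SE 0.3, limma adjusted p = 0.00913) and 1.32 (SE 0.269, adjusted p = 0.00189). In dorsal striatum 5 of 10 members were called, all higher in EM, where 30.2% of genes were: Fos, Junb (0.80, adjusted p = 0.039), Egr2 (0.70, adjusted p = 0.031), Egr4 (0.48, adjusted p = 0.0245) and Nr4a1 (0.78, adjusted p = 0.0325). In ventral striatum 2 of 10 were called, where 22.1% of genes were: Fos and Fosb (1.04, adjusted p = 0.00747). The call of Fos in dorsal striatum was made under all 8 alternatives. Those of Junb and Nr4a1 were lost with median-ratio scaling, quantile normalization and no filter (Junb 0.68 to 0.80, Nr4a1 0.71 to 0.78), that of Nr4a1 also with edgeR (0.73, adjusted p = 0.0526). Egr4 was lost with both scalings (0.42, adjusted p = 0.0519, and 0.39, adjusted p = 0.0682). Egr2 was lost with quantile normalization (0.60, adjusted p = 0.0632) and no filter (0.70, adjusted p = 0.0707). Egr1, at 0.30 as reported (limma adjusted p = 0.109), was gained as higher in EM under other settings. These were quantile normalization, scaling to the reads in genes and the read share in the fit. The median over the 10 genes was 0.51 and 0.72, against 0.04 and 0.14 over all genes. EM libraries of D2 ventral striatum also held more D1 projection neuron (3 of 3 called, median difference 0.90), cortical glutamatergic (2 of 4, 1.08) and GABA interneuron markers (2 of 3, 0.69) than OdP libraries. In D2 dorsal striatum 2 of 3 D1 projection neuron markers (0.77) and 1 of 2 GABA interneuron markers (0.74) were higher in EM. Their part in the result was not tested. The codes were not balanced over receptors, so among EM libraries alone the members called for D1 against D2 were 1 of 10 in dorsal striatum (Egr1; 12.3% of genes) and 4 of 10 in ventral striatum (Junb higher, and Egr1, Egr2 and Npas4 lower; 40.1%). For the regional comparisons EM libraries gave 6 of 10 in D1 (31.3% of genes) and 4 of 10 in D2 (19.8%), the latter being Egr1, Egr2, Egr4 and Arc.

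**Figure D3:**
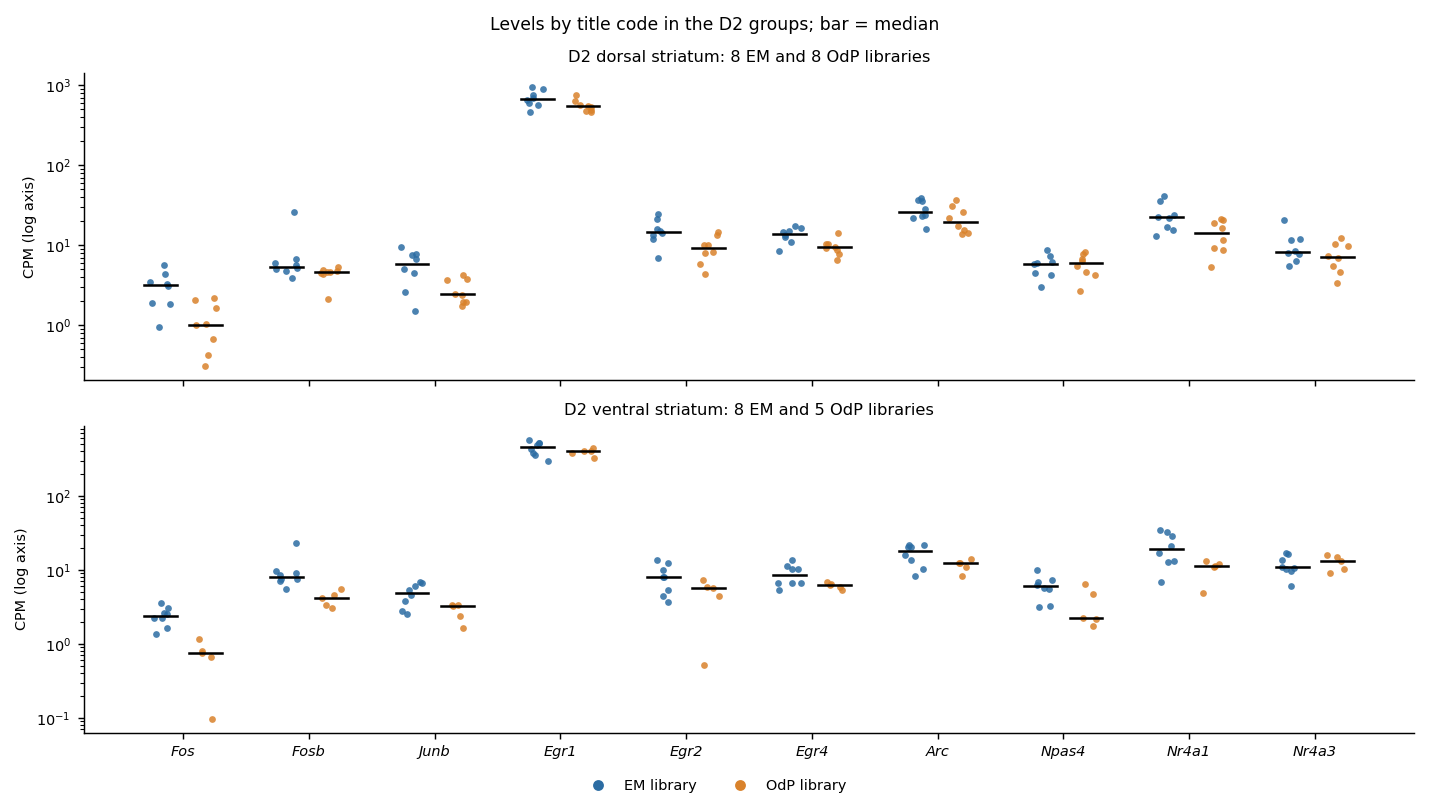
CPM (log axis) of the 10 genes in EM and OdP libraries of D2 dorsal (8 and 8) and D2 ventral striatum (8 and 5), with bars at medians. For Fos in ventral striatum the lowest EM library (1.37) lies above the highest OdP library (1.16).

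Of the 45 pairs of members, 38 to 43 had a positive Pearson r of log2(CPM + 0.5) in each group, with median r 0.49 in D1 dorsal (range -0.158 to 0.864), 0.525 in D2 dorsal (-0.109 to 0.898), 0.445 in D1 ventral (-0.301 to 0.852), 0.607 in D2 ventral (-0.056 to 0.924) and 0.385 in cortex (-0.239 to 0.888). Pairs with r over 0.5 numbered 21, 26, 16, 27 and 15 of 45, in the same order of groups. As background, the median r of a member with all other genes ran from -0.044 (Fosb in D1 ventral striatum) to 0.208 (Fos in D2 ventral striatum). The share of all other genes with r over 0.5 to a member ran from 0.633% (Arc in cortex) to 28.2% (Fos in D2 ventral striatum). In D1 dorsal striatum it was 23.3% for Junb, which had 4 of 9 members over 0.5, and 21.1% for Fos, which had 2 of 9. Within EM libraries the medians were 0.514, 0.388, 0.602, 0.583 and 0.568. Positive pairs there fell to 31 of 45 in D2 dorsal (lowest r -0.471) and 36 of 45 in D2 ventral striatum (-0.63), and were 42 to 44 elsewhere. The pair with the highest Pearson r differed from group to group. In D1 dorsal striatum it was Fosb with Arc (r = 0.864, permutation p = 0.00017; rho = 0.796, permutation p = 0.00069; r = 0.693 without the 2 libraries farthest from the median). Fosb with Egr1 was lower in r there (0.842, permutation p = 1e-05) but higher in rho (0.932) and without 2 (0.936). In D2 dorsal striatum it was Fos with Egr4 (r = 0.898, permutation p = 1e-05, the smallest that 100000 permutations can give; rho = 0.9; r = 0.895 without 2). In D1 ventral striatum it was Egr2 with Arc (r = 0.852, permutation p = 8e-05; rho = 0.843, permutation p = 0.00018; r = 0.803 without 2), and in D2 ventral striatum Junb and Nr4a1 (r = 0.924, permutation p = 2e-05; rho = 0.846, permutation p = 0.00029; r = 0.88 without 2). In cortex Egr1 went with Nr4a3 (r = 0.888, permutation p = 1e-05; rho = 0.882, permutation p = 1e-05; r = 0.843 without 2). By rho the highest pairs were others in D1 ventral (Egr1 with Arc, 0.882) and D2 ventral striatum (Egr2 with Nr4a1, 0.881). Each pair named is the highest of 45 correlations in its group by one of these measures, and these p-values are not adjusted for that choice. The fits over all genes that follow are adjusted.

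Over all 79 libraries, each member's log2 level was used as a predictor of every other gene in limma with group as a term, and 12333 genes were tested. Every slope called between members was positive, but so were most slopes called over all genes. Genes called with a positive slope were 2.76% of all for Egr2, 1.92% for Egr1, 0.219% for Nr4a3 and 1.49% for Fosb. For Junb, Nr4a1, Fos, Egr4 and Arc they were 32.5%, 29.9%, 28.1%, 18.1% and 11.9%. The shares called in either direction follow. Arc and Nr4a1 were each called with all 9 other members, where 17.1% and 49.8% of all genes were called with them. Fos and Egr2 were called with 8 of 9 (44.3% and 2.97% of genes), Junb, Egr1 and Egr4 with 7 of 9 (54.9%, 2.24% and 25.5%), Nr4a3 with 5 of 9 (0.243%), Fosb with 2 of 9 (1.79%) and Npas4 with 0 of 9 (0.00811%). The members called with Junb, Nr4a1 and Fos thus stood among 6774, 6138 and 5465 called genes, and those called with Nr4a3, Egr1 and Egr2 among 30, 276 and 366.

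With the title code added to group, the background of Fos fell from 5465 called genes to 11, and 5 of the 11 were members. Fos was then called with 5 of 9 members (0.0892% of genes): Arc, slope 0.44 (SE 0.078, limma adjusted p = 0.00175), Egr4, Egr2, Egr1 and Nr4a3. Egr2 had 6 of 9 (0.105%, 13 genes in all), Nr4a3 6 of 9 (0.154%, 19 genes) and Egr4 5 of 9 (0.138%, 17 genes). Egr1 was called with 6 of 9 (1.61%), its steepest slope being that of Egr2, 1.60 (SE 0.183, adjusted p = 4.05e-09). Arc had 8 of 9 (17.2%), with all but Fosb, Nr4a1 7 of 9 (40.1%) and Junb 5 of 9 (53.6%). Fosb (0.0243% of genes, namely Grasp, Slc17a6 and Rnf152) and Npas4 (0.0243%, namely Ankrd34a, Kctd13 and Atxn1l) were called with 0 of 9 members; these 6 genes are listed because they are all that passed.

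**Figure D4:**
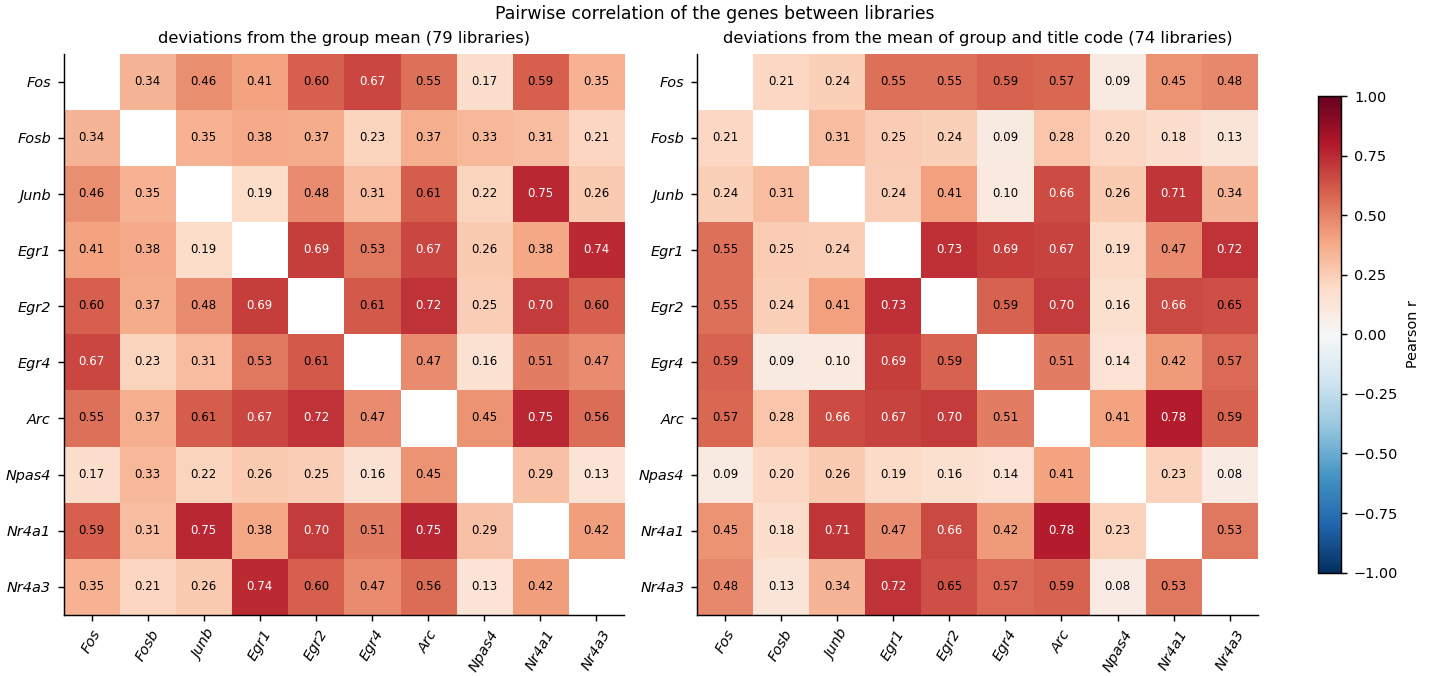
Pearson r between each pair of genes from deviations from the group mean (left, 79 libraries) and from the mean of group and title code (right, 74 libraries); colour runs from -1 to 1. Every r is positive. The Npas4 row is pale, at 0.13 to 0.45 on the left and 0.08 to 0.41 on the right, and so is the Fosb row on the right (0.09 to 0.31).

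The 5 libraries alone in their group and code have no deviation of their own, so 74 libraries remain after group and title code. Among such deviations Arc with Nr4a1 had the highest r, 0.783 (rho = 0.778, r = 0.76 without the 2 farthest libraries), followed by Egr1 with Egr2 (r = 0.733, rho = 0.786, 0.722 without 2), Egr1 with Nr4a3 (r = 0.719, rho = 0.735, 0.744 without 2) and Junb with Nr4a1 (r = 0.715, rho = 0.717, 0.722 without 2). Each of these had a permutation p of 1e-05, the smallest possible, among 65 relations computed. Junb, in contrast, had r = 0.095 with Egr4 (permutation p = 0.42; rho = 0.212; 0.202 without 2) and 0.245 with Egr1 (permutation p = 0.0366; rho = 0.283; 0.327 without 2). With the mean of the other 9 genes, r ran from 0.864 for Arc and 0.77 for Egr2 down to 0.289 for Fosb and 0.269 for Npas4, given as a description over libraries that share groups.

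Sequencing measures moved with some members more than with others. The share of reads in genes had r = -0.507 with Junb (permutation p = 1e-05; rho = -0.37; -0.383 without 2) and -0.382 with Nr4a1 (permutation p = 0.00079; rho = -0.338; -0.287 without 2), but 0.313 with Egr1 (permutation p = 0.0066; rho = 0.266; 0.34 without 2), after group and title code. With the mean of the 10 genes it was -0.03. The log2 number of reads in genes had r = -0.346 with Fos (permutation p = 0.00174; rho = -0.339; -0.308 without 2) after group alone and 0.067 (permutation p = 0.57; rho = 0.059; 0.125 without 2) after group and title code. When the gene read share was a covariate beside group, Junb was called with 33.2% of genes (4090) and Nr4a1 with 29.1% (3590), against 54.9% and 49.8% without it. Of the other members, 8 of 9 and 9 of 9 were then called with them.

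Single libraries were high or low in many members at once. In 6 libraries all 10 genes were above their group medians: D1 prefrontal cortex replicate 18, D1 ventral replicate 11, D2 dorsal replicates 7 and 8 and D2 ventral replicates 3 and 8, all of them EM. In 10 libraries none was. Of these 5 were EM (D1 dorsal replicate 11, D1 ventral replicates 10 and 12, D1 prefrontal cortex replicates 9 and 16), 4 OdP (D2 dorsal replicates 9, 10 and 12 and D2 ventral replicate 10) and 1 BdP (D1 ventral replicate 1). D2 ventral replicate 14, an OdP library, was among the 3 lowest of its group for 9 of 10 genes and held the lowest Fos (0.0982 CPM, next 0.659) and Egr2 (0.524, next 3.66). The spread of some members was wide for their level: the SD of log2(CPM + 0.5) was 0.93 for Egr2 in D2 ventral striatum, larger than that of 98.3% of genes at a like level, and 0.853 for Fos in D2 dorsal striatum (98%). The Egr2 value includes replicate 14. The Fos value spans 8 EM and 8 OdP libraries, with medians of 3.18 and 1.02 CPM. For Egr4 in D1 ventral striatum the SD was 0.219, larger than that of 26.8% of such genes.

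**Figure D5:**
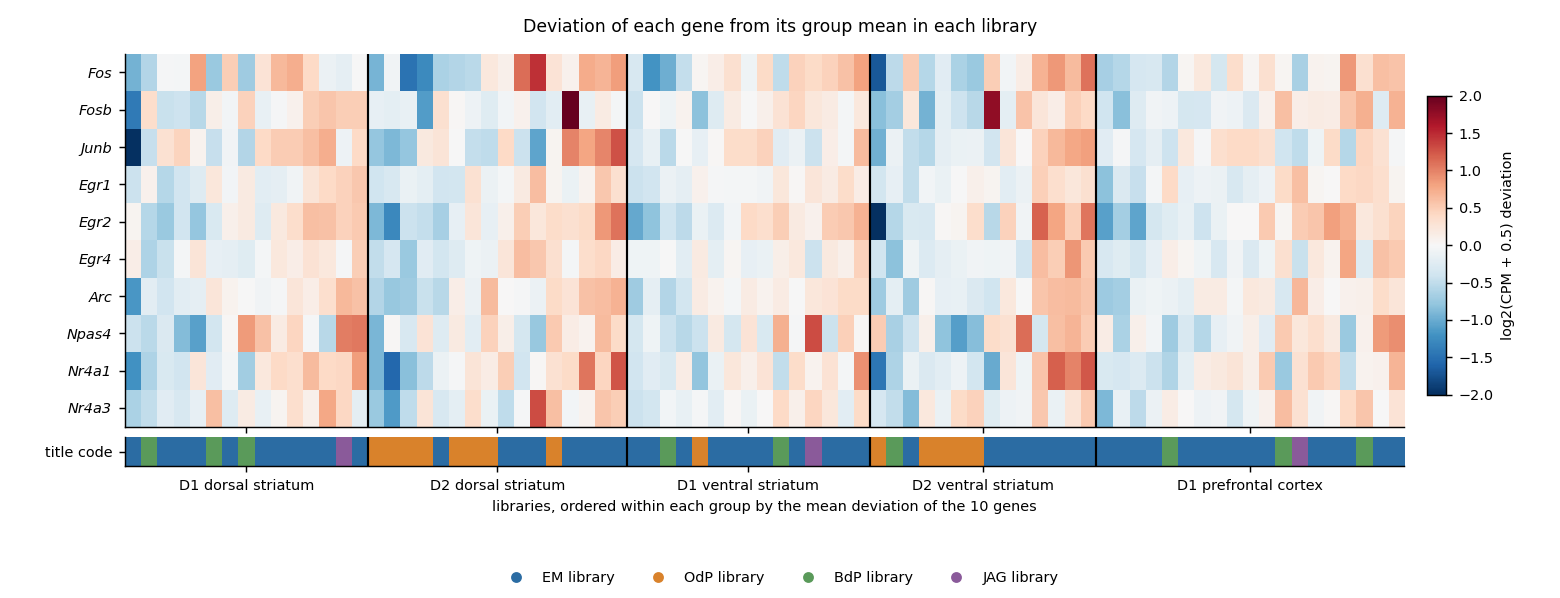
Deviation of each gene (rows) from its group mean in each library (columns, ordered within a group by the mean deviation), with the title code below; red is higher and blue lower, in log2(CPM + 0.5). Many columns are mostly of 1 colour. Others are mixed, such as D1 prefrontal cortex replicate 10, with 5 genes among the 3 highest of the group and 3 among the 3 lowest.

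Negative regulators of the same signals were taken from a list of 8: the phosphatases Dusp1, Dusp4, Dusp5 and Dusp6, the Egr corepressors Nab1 and Nab2, and Spry2 and Spry4. Dusp6, which dephosphorylates ERK, exceeded its ventral level in dorsal striatum by 1.08 in D1 (SE 0.121, limma adjusted p = 5.99e-09) and 0.65 in D2 (SE 0.133, adjusted p = 0.000253), as the Egr genes and Arc did. It was lower in D1 than in D2, with -0.59 in dorsal (adjusted p = 0.000224) and -1.03 in ventral striatum (adjusted p = 3.56e-07), as Egr1 was. Among EM libraries these were -0.65 (adjusted p = 0.00365) and -1.13 (adjusted p = 3.49e-05). Spry2, an inhibitor of receptor tyrosine kinase signals, and Dusp1 were also higher in dorsal striatum, by 0.66 and 0.58 in D1 and 0.44 and 0.43 in D2. The corepressor gene Nab1 was lower there (-0.46, adjusted p = 0.0088, in D1 and -0.50, adjusted p = 0.0281, in D2). Of the list, 5 of 8 tested were called by region in D1 (3 higher, 2 lower; 34.6% of all genes) and 4 of 7 in D2 (3 higher, 1 lower; 28.5%). By receptor 2 of 7 were called in dorsal (both lower; 25.9% of all genes) and 6 of 8 in ventral striatum (2 higher, 4 lower; 47.7%). Among EM libraries 1 of 8 (12.3%) and 5 of 8 (40.1%) were called, and Spry2 in dorsal striatum was not (-0.36, adjusted p = 0.21). In cortex 6 of 8 were called against each striatal region (54.8% and 62.8% of all genes), led by Spry4 (1.67 against dorsal and 1.86 against ventral striatum). Between libraries, with group and title code as terms, Dusp6 was called with 8 of the 10 members, all slopes positive, among them Fos (0.35, adjusted p = 0.00211) and Egr2 (0.28, adjusted p = 0.00344). In that fit 53.6%, 40.1% and 17.2% of all genes were called with Junb, Nr4a1 and Arc and 0.0892% to 1.61% with the other 5. Dusp1 was called with Egr1 (0.99, adjusted p = 5.4e-07), Egr4 (0.85, adjusted p = 1.95e-05) and Nr4a3 (0.55, adjusted p = 0.00248).

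Other immediate early transcription factors, a list of 15, gave 2 of 10 tested called by receptor in dorsal striatum (Nr4a2, 3.56, and Jun, -0.76; 25.9% of all genes). In ventral striatum they gave 5 of 10 (3 higher, 2 lower; Nr4a2 1.98, Egr3 0.75, Per1 0.67 and Klf10 -0.69; 47.7%). By region 6 of 11 were called in D1 (4 higher, 2 lower; 34.6%) and 3 of 10 in D2 (1 higher, Ier5 at 1.18, 2 lower; 28.5%). The receptor differences of Nr4a2, the remaining member of the Nr4a receptor family, stood beside those of cortical glutamatergic markers (4 of 4 called higher in D1 in each, median 3.05 in dorsal and 2.07 in ventral striatum). Its mean was 97.7 CPM in cortex, 44.5 in D1 dorsal and 17.6 in D1 ventral striatum. The part of cortical RNA in these values was not tested. Among EM libraries Nr4a2 differed by 3.19 (adjusted p = 4.65e-10) and 1.51 (adjusted p = 0.0013). Of the list, 2 of 11 (12.3% of all genes) and 5 of 10 (40.1%) were called there. In cortex 9 of 10 were called against dorsal striatum (6 higher, 3 lower; Jun 1.81, Nr4a2 1.14; 54.8% of all genes) and 8 of 10 against ventral striatum (6 higher, 2 lower; Nr4a2 2.54, Klf10 1.34; 62.8%).

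Effector genes that these factors and signals are known to induce, a list of 16, included the secreted peptide precursors Scg2 and Vgf and the activin subunit Inhba. By receptor 5 of 13 tested were called in dorsal striatum, all higher in D1 (Scg2 1.17, Inhba 0.76, Vgf 0.44; 25.9% of all genes), and 7 of 12 in ventral striatum (6 higher, 1 lower; Scg2 0.86, Inhba 0.82, Homer1 -0.73; 47.7%). Among EM libraries 4 of 15 (all higher; 12.3% of all genes) and 6 of 13 (4 higher, 2 lower; 40.1%) were called, Scg2 at 0.93 and 0.62. Inhba was at 0.54 (adjusted p = 0.108, not called) in dorsal and 0.80 in ventral striatum, and Vgf was called in neither (0.31 and 0.29). By region 6 of 13 were called in each line (4 higher, 2 lower; 34.6% of all genes in D1 and 28.5% in D2), Inhba being higher in dorsal striatum (0.69 in D1, 0.76 in D2) and Scg2 lower (-0.63 and -0.95). Bdnf, the neurotrophin gene, was higher in cortex by 2.44 than in D1 dorsal and by 3.26 than in D1 ventral striatum, and 11 of 15 effectors were called in each of these (6 higher, 5 lower; 54.8% and 62.8% of all genes).

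Upstream factors and kinases, a list of 15 that includes Creb1, Camk4, Mapk3 and Rps6ka5, were called in 3 of 15 by receptor in dorsal striatum (25.9% of all genes) and 9 of 15 in ventral striatum (47.7%). Among EM libraries 1 of 15 (12.3%) and 7 of 15 (40.1%) were called, the dorsal calls of Creb1 (-0.31, adjusted p = 0.105) and Rps6ka5 (0.35, adjusted p = 0.0937) being lost. By region they were called in 9 of 15 in D1 (34.6%) and 7 of 15 in D2 (28.5%). Rps6ka5, the kinase MSK1, was higher in dorsal striatum by 0.60 in D1 and 0.58 in D2, and Mapk3, the kinase ERK1, lower (-0.78 and -0.69). Camk4, the calcium-dependent CREB kinase, was lower in D1 than in D2 (-0.54 in dorsal and -0.92 in ventral striatum, and -0.40 and -0.69 among EM libraries). In cortex 10 of 15 were called against dorsal (3 higher, 7 lower; 54.8%) and 14 of 15 against ventral striatum (2 higher, 12 lower; 62.8%), Ppp1r1b, which encodes DARPP-32, being lower (-4.93 and -4.56). Between libraries, with group and title code as terms, 0 of 15 were called with Fos, Fosb, Egr1, Egr2, Egr4, Npas4 or Nr4a3, while 13 of 15 were called with Junb and with Nr4a1 and 8 of 15 with Arc, members with which many genes of any kind were called.

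Likeness to the set was ranked by the Pearson r between a gene's deviations and the mean standardized deviation of the 10 members, as a description, over 79 libraries after group and 74 after group and title code. After group, the 5 genes most like the mean were Midn (0.711), Dusp14 (0.621), Etv5 (0.62), Fosl2 (0.609) and Ncoa5 (0.597). After group and title code they were Fosl2 (0.655), Midn (0.648), Dusp6 (0.629), Etv5 (0.598) and Dlx5 (0.541), so 3 genes were in both lists: Midn, whose product midnolin is known to bring immediate early proteins to the proteasome, the ETS factor gene Etv5, and Fosl2, which encodes a further AP-1 subunit. For single members after group and title code, Dusp1 was the gene most like Egr1 (0.676), Egr4 (0.633) and Nr4a3 (0.547), Midn the most like Nr4a1 (0.764) and Dusp6 the most like Fos (0.571). Etv5 was the most like Egr2 (0.582), Fmnl1 the most like Arc (0.662), Grasp the most like Fosb (0.549), Mafg the most like Junb (0.807) and Ankrd34a the most like Npas4 (0.543).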

How the data were processed

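The authors deposited 1 table of CPM values for 79 libraries, with 0 columns unmatched to a sample. Per the submitters' processing notes the build was GRCm38, and the tools named were FastQC, Trim Galore 0.4.2, cutadapt 1.9.1 and HISAT2 0.12.2; the counting program and the total behind the CPM are not given in the sources used here. All values above 0 (100%, tolerance 0.1) were whole multiples of 1 read, so whole reads were recovered for edgeR 4.0.16 as an alternative. CPM removes total depth but not the share of reads in genes. Reads come from amplified cDNA without molecular identifiers in the labels, so they bound counting error only. All pairs of libraries within a group differed beyond sampling noise (chi-square over degrees of freedom of 7.83 or more).

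limma 3.58.1 in R 4.3.3 (lmFit, eBayes with trend) was run on log2(CPM + 0.5) for genes that reached 1 CPM in a number of libraries no lower than the size of the smaller group, two-sided, with Benjamini-Hochberg adjustment over all genes; the script was tested on simulated data. Differences are those of the first-named group minus the other. The 2 libraries with incomplete sex labels were left out of the model of males. Correlations used 100000 permutations. The alternatives were other scalings, pseudocounts, filters, covariates (title code, share of reads in genes, number of males), array weights, EM libraries only, all groups in 1 fit, edgeR and leaving out each library; blocking by runs of titles and EM values of listed genes were added after seeing the data. The members, lists and tests were chosen with earlier results of these data known. From each list the text names up to 4 called genes with the largest differences whose higher group averaged 5 CPM or more; likeness names the 5 closest genes to the set and the closest to each member. Promoter windows were read from RefSeq; those of Fosb, Nr4a3 and Npas4 overlap annotated exons and are not printed, and Arc and Egr1 were not matched.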

Additional observations from a re-analysis of the deposited data

How the results depend on the processing

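No paired analysis could be based on the labels, because none says which libraries share mice. Each title has a number of its own within its letter code, apart from JAG13 and JAG13bis. In an alternative chosen after seeing the data, runs of consecutive titles (same code, receptor and males) were assumed to share mice and given a common correlation (0.182 to 0.322 by comparison). Members called were then 6 and 5 for region in D1 and D2 (44.5% and 35.2% of genes), 7 for cortex against ventral striatum (67.6%), 8 against dorsal striatum (58%), with Junb added, and 0 for the interaction (5.85%). Covariation pairs were 58, or 46 with group and title code. Among EM libraries the ventral receptor calls went from 3 higher and 1 lower (47.7% of genes) to 1 higher and 3 lower (40.1%). The number of members called for D1 against D2 in dorsal striatum was 4 as reported (25.9% of genes). It was 2 with edgeR, with quantile normalization, with no filter on low values and after adjusting for the fraction of reads in genes. It was 1 among EM libraries (12.3% of genes) and with the title code as a covariate. With array weights it was 5, and on leaving out 1 library at a time 2 to 4. In ventral striatum the number went from 4 (47.7% of genes) to 1 after adjusting for the fraction of reads in genes. It stayed at 4 (3 higher, 1 lower) with the title code as a covariate and was 4 to 5 on leaving out 1 library. For EM against OdP libraries in D2 dorsal striatum the number went from 5 (30.2% of genes) to 2 with median-ratio scaling, quantile normalization and no filter. On leaving out 1 library the counts were 5 to 6 and 4 to 5 for region in D1 and D2, 7 to 8 and 7 to 7 for cortex against dorsal and ventral striatum, and 0 to 0 for the interaction. Where no share of genes is given beside a count, a change in members cannot be told from a general change in calls. The causes were not tested. No difference changed sign where it was called. The 62 ordered pairs of members called in covariation were 46 to 72 over its alternatives, and 48 with group and title code. Depth limits Fos most, with 6 reads in its lowest library.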
